A study of Mus musculus with 2 samples.

Results

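High endothelial venule (HEV) cells were described in 2 single-cell RNA libraries of the mouse mammary gland as the cells with very high Glycam1, the gene of a mucin secreted by such venules. A cell was a member when at least 500 genes were detected and at most 10% of its UMIs (unique molecular identifiers, 1 per captured RNA molecule) were mitochondrial. It also had at least 100 Glycam1 UMIs per 10000 UMIs of the cell, under 50 of Krt18 and under 20 of Krt5 and Krt14 together, 2 limits that set aside luminal and basal epithelial cells. Members were thus chosen by their measured Glycam1 and keratin levels. The rule found 365 members among 8909 kept cells, 317 of 5493 in the library called cKO and 48 of 3416 in the library called Ctrl. Because Glycam1 chose the members, its level and the genes that go with it are given as a description, with no test. The cells are called HEV-like here.

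Examined was gene expression in mammary cells after loss of the microRNA locus miR-200c/141, with 1 library per group. The cKO library came from C57BL/6 mice carrying K8-CreERT2;miR-200c/141-flox/flox, in which a tamoxifen-inducible Cre recombinase driven by the promoter of keratin 8, a keratin of luminal epithelium, can delete the floxed locus. The Ctrl library came from C57BL/6 mice carrying miR-200c/141-flox/flox, which lack the Cre. Mice of both groups received tamoxifen at 8 to 10 weeks of age, and glands were taken 4 weeks later, dissociated and enriched for mammary cells by flow cytometry (FACS). An age of 8 weeks stands in the labels as well. The number of mice in a library is not given in the sources used here. Keratin 8 is an epithelial gene, and the deletion was not measured in HEV-like cells, since mature microRNAs are not counted by this assay.

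High endothelial venules are post-capillary venules through which lymphocytes leave the blood, best known from lymph nodes. Their cells decorate mucins such as Glycam1 and Cd34 with a sulfated and fucosylated sugar, the ligand of L-selectin (the homing receptor on lymphocytes), which is built by enzymes that include Fut7, Chst4, Chst2, Gcnt1 and B3gnt3. They present the chemokine Ccl21, make lysophosphatidic acid through the secreted enzyme Enpp2 (autotaxin), and depend on lymphotoxin signalling from leukocytes.

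The rule cut through a nearly empty range. Among the 679 cKO and 218 Ctrl cells within the keratin limits, 13 cKO cells and 1 Ctrl cell had Glycam1 between 20 and 100 per 10000. The nearest members stood at 101 per 10000 in cKO and 143 in Ctrl, and the nearest cells outside at 75.6 in cKO and 84.1 in Ctrl. Members had a median of 1336 Glycam1 UMIs per 10000 in cKO (lowest 101, highest 5679) and 1718 in Ctrl (lowest 143, highest 3882). Glycam1, at chr15:103562759-103565081 on the minus strand in mm10, alone made up 15.2% of all UMIs of cKO members and 19.7% of those of Ctrl members.

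**Figure D1:**
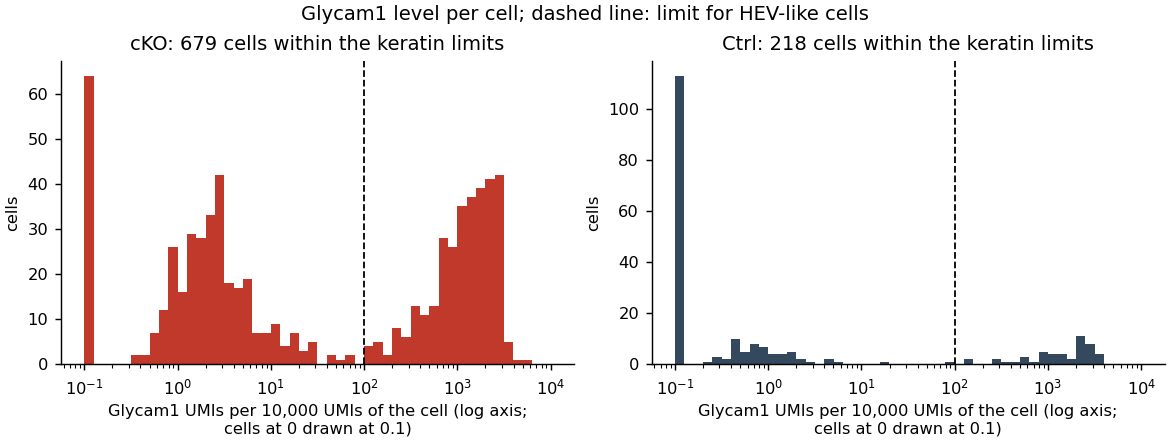
Glycam1 UMIs per 10000 UMIs of a cell (log axis) against the number of cells, for cells within the keratin limits in cKO (left) and Ctrl (right). Cells to the right of the dashed line at 100 are the 317 cKO and 48 Ctrl members, and few cells lie just left of it.

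Members were deeply sequenced, with a median of 26494 UMIs in cKO and 31043.5 in Ctrl, and 9242112 and 1627965 UMIs in all, against medians of 11482 and 11404.5 in other blood endothelial cells of cKO and Ctrl. Other blood endothelial cells (123 in cKO, 58 in Ctrl) were those with at least 10 UMIs per 10000 of 6 endothelial genes together (Pecam1, Cdh5, Cldn5, Egfl7, Esam and Ramp2), Glycam1 under 20, the same keratin limits and under 5 of the lymphatic genes Lyve1, Mmrn1 and Prox1 together. A Prox1 UMI was still found in 22 of these 123 cKO and 6 of these 58 Ctrl cells. Of the members, 315 of 317 in cKO and 47 of 48 in Ctrl reached the same endothelial level. The 2 libraries shared 6 of 10494 barcodes, and none was a member. Outside the members, a Glycam1 UMI was found in 75.6% of cKO and 28.7% of Ctrl basal cells. Their median depths were 7337 and 10380.5 UMIs, and thinning each cell to 5000 UMIs gave 61.3% and 13.7%. Whether free RNA was the source was not tested. A Fut7 UMI, in contrast, was found in 77.0% of cKO and 83.3% of Ctrl members, against 0.311% of cKO and 0.0951% of Ctrl basal cells. Thinned to 5000 UMIs, which left out 19 cKO and 2 Ctrl members, the Fut7 shares of members were 49.7% and 49.5%.

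HEV-like cells were 5.77% of kept cells in cKO (317 of 5493, exact 95% interval 5.17 to 6.42%) and 1.41% in Ctrl (48 of 3416, 1.04 to 1.86%). Among HEV-like and other blood endothelial cells together they were 72.0% in cKO (317 of 440, 67.6 to 76.2%) and 45.3% in Ctrl (48 of 106, 35.6 to 55.2%). Both shares were higher in cKO beyond counting error. With 1 library per group, intervals cover counting error only, and no test between genotypes is possible. The cells had been enriched by FACS, which can set such shares, and its part was not tested.

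HEV-like cells were set beside other blood endothelial cells of the same library. Of 11 tested high endothelial reference genes, 7 were at least 2-fold higher in HEV-like cells of both libraries and 1 was lower. Of 4137 genes with enough UMIs for the comparison (at least 20 expected in each of the groups compared), 150 (3.63%) were at least 2-fold higher in HEV-like cells in both libraries and 599 (14.5%) at least 2-fold lower. With Glycam1 left out of the totals, 396 were lower. All 6 marker genes were among the higher ones, but this contrast follows the choice of members and nothing is read from these counts. Levels are given as CPM, a gene's UMIs scaled to equal totals of UMIs per group, for comparing 1 gene between groups of cells. Other blood endothelial cells were not alike in the 2 libraries in markers of other cell types. Their summed luminal markers stood at 830 CPM in cKO and 336 in Ctrl, lymphatic ones at 214 and 79.6, and fibroblast ones at 212 and 56.9. Basal markers were among those that went the other way (127 and 158). The part of this in the ratios was not tested.

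The mucin itself stood at 151878 CPM in cKO and 196922 CPM in Ctrl HEV-like cells, against 176 CPM in cKO and 69.4 CPM in Ctrl other blood endothelial cells. The fucosyltransferase Fut7, which adds the fucose that L-selectin requires, had 255 CPM in cKO and 183 CPM in Ctrl HEV-like cells, against 0.543 CPM in cKO and 6.83 CPM in Ctrl other blood endothelial cells. Chst4, the sulfotransferase of high endothelium, had 157 CPM in cKO and 159.7 CPM in Ctrl HEV-like cells, against 1 UMI in cKO and 0 UMIs in Ctrl other blood endothelial cells. A Chst4 UMI was found in 87.1% of cKO and 81.3% of Ctrl members, against 1 of 123 cKO and 0 of 58 Ctrl other blood endothelial cells, and 0 of 58 allows a share of up to 5.17%. Chst2, another sulfotransferase, was 4.83-fold higher in cKO and 5.22-fold higher in Ctrl, and Gcnt1, which starts the branched core of the sugar, 16.8-fold and 69.1-fold higher. Gmds, an enzyme of GDP-fucose synthesis, was 5.47-fold higher in cKO and 4.06-fold higher in Ctrl. In all, 5 of the 9 tested genes of L-selectin ligand synthesis were at least 2-fold higher in both libraries and 1, the galactosyltransferase B4galt1, was lower. B3gnt3, which extends the core, was low in members, with 14.9 CPM in cKO and 6.76 CPM in Ctrl.

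Chemokine and lipid attractant genes went both ways: of 14 tested, 5 were higher in HEV-like cells of both libraries and 4 lower, and the list's median log2 ratio was -0.20. Ccl21a had 13176 CPM in cKO and 16785 CPM in Ctrl HEV-like cells, against 13.6 CPM in cKO and 5.69 CPM in Ctrl other blood endothelial cells. Reads of Ccl21 genes cannot be told apart with certainty, because near-identical copies exist, and the level is that of the copy the authors' counting chose. Enpp2 was 6.32-fold higher in cKO and 9.74-fold in Ctrl, and Ch25h, which makes the oxysterol precursor of a lymphocyte attractant, 11.9-fold and 10.4-fold. The interferon-induced chemokine Cxcl9 was 5.87-fold higher in cKO and 26.3-fold in Ctrl. Cxcl13 and Ccl19, chemokines of lymphoid stroma, in HEV-like cells were at or under 4 CPM in both libraries, and Cxcl12 was at 4.11 CPM in cKO and 3.69 CPM in Ctrl HEV-like cells, against 405 CPM in cKO and 313 CPM in Ctrl other blood endothelial cells.

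Of MHC class II genes 5 of 5 tested were higher in HEV-like cells of both libraries, of MHC class I and peptide loading genes 0 of 16 were higher and 1 lower, of serpins 4 of 11 were higher and 2 lower, and of complement and acute-phase genes 4 of 9 were higher and 1 lower. Cd74, the invariant chain of MHC class II, had 1195 CPM in cKO and 1515 CPM in Ctrl HEV-like cells, against 25 CPM in cKO and 36.4 CPM in Ctrl other blood endothelial cells. The class II chains H2-Aa and H2-Ab1 were 27.2-fold and 8.71-fold higher in cKO and 16.1-fold and 18.6-fold higher in Ctrl, while Ciita, the class II transactivator, had 1 UMI in cKO and 0 in Ctrl members. Ubd, a ubiquitin-like modifier induced by inflammatory cytokines, had 1757 CPM in cKO and 1692 CPM in Ctrl HEV-like cells, against 13.6 CPM in cKO and 11.4 CPM in Ctrl other blood endothelial cells. Serpina1e, a mouse relative of alpha-1-antitrypsin, had 1698 CPM in cKO and 1576 CPM in Ctrl HEV-like cells, against 36.9 CPM in cKO and 12.5 CPM in Ctrl other blood endothelial cells. Serpinb1a, an inhibitor of neutrophil proteases, was 11.6-fold higher in cKO and 7.22-fold in Ctrl. Both belong to families of close copies, so their reads may be shared. Of complement and acute-phase genes, Cfb, C1ra, C1s1 and Lrg1 were at least 2-fold higher in both libraries; Lrg1 stood at 3866 CPM in cKO and 3515 CPM in Ctrl HEV-like cells, against 368 CPM in cKO and 841 CPM in Ctrl other blood endothelial cells.

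The 15 genes with the highest ratio to other blood endothelial cells, by the lower of the libraries' ratios, also held several not usually listed for high endothelium. They were Ccl21a, Glycam1, Ly6i, Ubd, Hamp, Ptgds, Chst4, Serpina1e, Pf4, Cd74, Gm36756, Nxph1, Oit1, Fut7 and Il4i1. Ptgds, a synthase of prostaglandin D, had 181 CPM in cKO and 202 CPM in Ctrl HEV-like cells and no UMI in other blood endothelial cells, so it was at least 111-fold higher in cKO and at least 59.2-fold higher in Ctrl (against a floor of 3 counts over the group). Nxph1, a secreted ligand of neurexins, had 148 CPM in cKO and 223 CPM in Ctrl and was found in 89.3% of cKO and 93.8% of Ctrl members. Pf4, a chemokine known from platelets, had 385 CPM in cKO and 311 CPM in Ctrl. Ly6i belongs to a family of close copies whose reads may be shared. Hamp, the iron hormone hepcidin known from liver, had 1433 CPM in cKO and 649 CPM in Ctrl members.

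**Figure D2:**
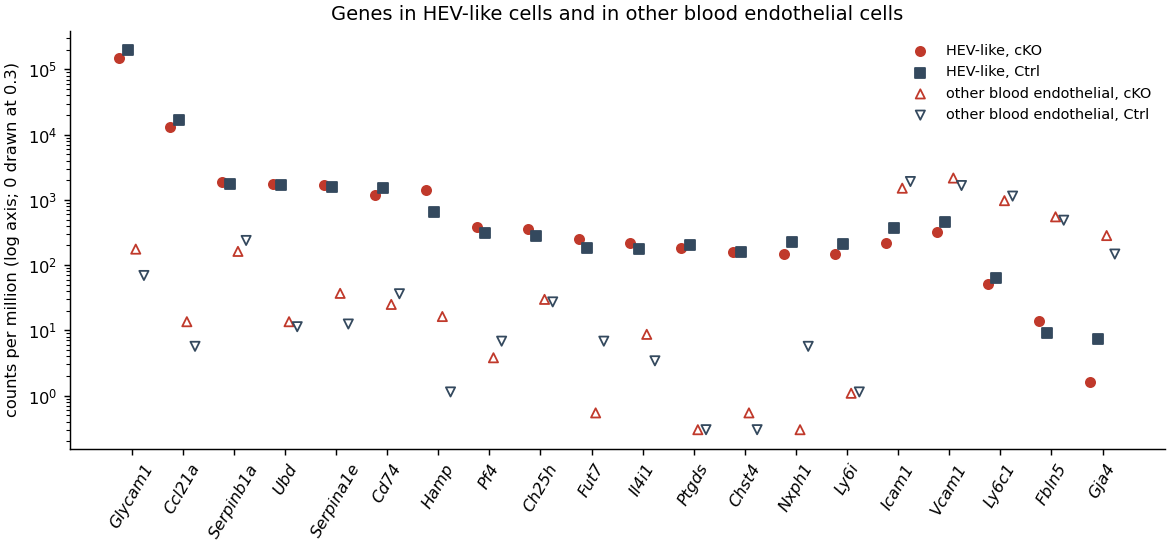
CPM (log axis, 0 drawn at 0.3) of 20 genes in HEV-like cells (filled) and other blood endothelial cells (open), cKO in red and Ctrl in grey. The first 15 genes are high in HEV-like cells of both libraries, and the last 5 (Icam1, Vcam1, Ly6c1, Fbln5, Gja4) are higher in other blood endothelial cells.

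Among genes at least 2-fold lower in HEV-like cells of both libraries (14.5% of all tested) were 6 of 8 tested capillary genes and 5 of 5 tested arterial genes, given here as a description. Rgcc, a capillary marker, was 113-fold lower in cKO and 60.4-fold in Ctrl, Ly6c1 19-fold and 18.1-fold, and Fbln5, an elastic-fibre gene of arteries, 40-fold and 53-fold. Among adhesion molecules, 7 of 16 tested were lower and 1, Glycam1, was higher. Icam1 had 217 CPM in cKO and 377 CPM in Ctrl HEV-like cells, against 1512 CPM in cKO and 1913 CPM in Ctrl other blood endothelial cells, and Vcam1 was 6.75-fold lower in cKO and 3.6-fold lower in Ctrl. Of 8 tested venous genes, 2 were at least 2-fold higher in both libraries and 1, Vcam1, was lower. The venous gene Nr2f2 was 2.32-fold higher in cKO and 2.13-fold higher in Ctrl. Gja4, an arterial connexin, had 1.62 CPM in cKO and 7.37 CPM in Ctrl HEV-like cells, against 284 CPM in cKO and 148 CPM in Ctrl other blood endothelial cells.

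Immediate early genes, which dissociation of tissue is known to induce, were also lower: 16 of 19 tested in both libraries, with Fos at 199 CPM in cKO and 62.7 CPM in Ctrl HEV-like cells, against 774 CPM in cKO and 319 CPM in Ctrl other blood endothelial cells. Of heat shock genes 7 of 12 were lower, with Hspa1a at 72.2 CPM in cKO and 468 CPM in Ctrl HEV-like cells, against 1106 CPM in cKO and 1999 CPM in Ctrl other blood endothelial cells. Of 20 genes of the secretory pathway 3 were higher and 0 lower, among them Xbp1, a transcription factor of secretory cells, at 896 CPM in cKO and 541 CPM in Ctrl HEV-like cells, against 208 CPM in cKO and 163 CPM in Ctrl other blood endothelial cells. Ccnd1, the cyclin named in the study's title, was also higher, at 677 CPM in cKO and 593 CPM in Ctrl HEV-like cells, against 130.3 CPM in cKO and 100.1 CPM in Ctrl other blood endothelial cells. How much of these differences comes from handling of the cells was not tested.

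Most markers of other cell types were low. Of the myeloid list, Lyz2, Csf1r, Adgre1 and Itgax had 0 UMIs in members of both libraries. The myeloid list of 8 genes summed to 47.7 CPM in cKO and 9.21 in Ctrl, of which Fcer1g, also carried by cells outside the myeloid lineage, made up 45.4 and 5.53. Luminal epithelial markers summed to 610 CPM in cKO and 561 in Ctrl, and basal ones to 81.3 and 60.2. The summed levels of fibroblast markers were 15.8 CPM in cKO and 1.23 in Ctrl, of pericyte markers 3.57 and 3.69, of T and NK cell markers 17.9 and 11.7, of B cell markers 34.8 and 19.0, and of pan-leukocyte markers 44.5 and 30.1. Igkc, an immunoglobulin light chain gene outside the B cell list, had 77.4 CPM in cKO and 48.5 CPM in Ctrl members, in 23 of 317 and 4 of 48 cells, against 2 of 123 cKO and 0 of 58 Ctrl other blood endothelial cells. At least 1 UMI of 7 leukocyte markers was found in 36 of 317 cKO and 5 of 48 Ctrl members. The lymphatic list of 8 genes includes Ccl21a and summed to 13209 CPM in cKO and 16806 in Ctrl members. Ccl21a made up 121772 of its 122076 UMIs in cKO and 27325 of its 27360 UMIs in Ctrl. The lymphatic transcription factor Prox1 had 1.3 CPM in cKO and 0 CPM in Ctrl members, against 226 CPM in cKO lymphatic endothelial cells. Madcam1, the addressin of mucosal high endothelium, was at 9.2 CPM in cKO and 9.83 CPM in Ctrl and was found in 12 of 317 cKO and 2 of 48 Ctrl members. Bst1, a marker of lymphoid stroma, was measurable in members at 191 CPM in cKO and 283 CPM in Ctrl, against 4.89 CPM in cKO and 13.7 CPM in Ctrl other blood endothelial cells.

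Members were not uniform. Ccl21a separated them into 2 groups in both libraries: 57 of 317 cKO members (18%, 13.9 to 22.7%) and 9 of 48 Ctrl members (18.8%, 8.95 to 32.6%) had under 10 Ccl21a UMIs per 10000, most of them 0 (37 cells in cKO and 8 in Ctrl). The remaining members had medians of 142 in cKO and 183 in Ctrl. Only 5 cKO members and 1 Ctrl member lay between 5 and 20 per 10000. The limit of 10 was chosen after the values were seen. Ccl21a-low members had a median depth of 19821 UMIs in cKO and 26148 in Ctrl, against 26988.5 and 33594 in the others.

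Marker levels in the Ccl21a-low cells were not all alike between libraries. Glycam1 had medians of 1510 per 10000 in Ccl21a-low and 1317 in the other cKO members, and 1443 and 1734 in Ctrl. Ubd was at 1625 CPM in Ccl21a-low and 1805 CPM in other cKO members, and at 1692 and 1725 CPM in Ctrl. Fut7 was at 204 CPM in Ccl21a-low and 268 CPM in other cKO members, but at 352 and 160 CPM in Ctrl, and Chst4 at 131 and 164 CPM in cKO and 247 and 149 CPM in Ctrl. Madcam1 was at 3.11 and 10.3 CPM in cKO, and at 68.6 and 0.724 CPM in Ctrl. Each of these Ctrl values came from a single cell, since only 2 of 48 Ctrl members held a Madcam1 UMI. Of 1656 genes with at least 15 UMIs expected on each side, 2 (0.121%) were at least 2-fold higher in the Ccl21a-low cells of both libraries and 2 (0.121%) at least 2-fold lower. The higher ones were the inducible heat shock genes Hspa1a and Hspa1b, which may share reads. Hspa1a was at 163 against 58.3 CPM in cKO and 1577 against 302 CPM in Ctrl. In Ctrl only 9 cells were Ccl21a-low, and a single one of them held 178 of the 762 Hspa1a UMIs of all Ctrl members. The lower ones were the interferon-induced chemokines Cxcl9 (46.6 against 150.3 CPM in cKO, 32 against 101 CPM in Ctrl) and Cxcl10 (288 against 624 CPM in cKO, 4.57 against 344 CPM in Ctrl).

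**Figure D3:**
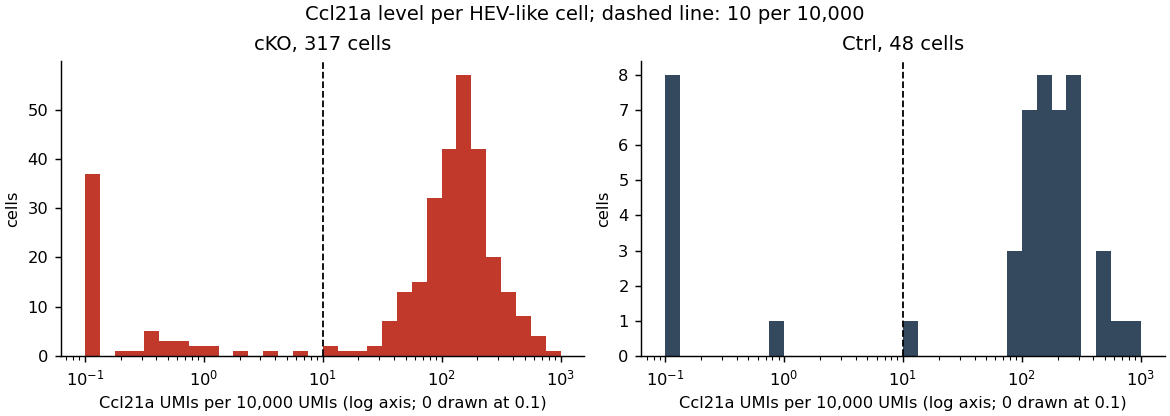
Ccl21a UMIs per 10000 UMIs (log axis, 0 drawn at 0.1) against the number of HEV-like cells, in cKO (left, 317 cells) and Ctrl (right, 48 cells). In both libraries a group of cells at or near 0 stands apart from the main group with medians of 142 in cKO and 183 in Ctrl, with few cells near the dashed line at 10.

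Hamp was found in fewer cells than the other leading genes, 139 of 317 cKO members and 14 of 48 Ctrl members, and 17 cKO and 3 Ctrl cells held at least 50% of its UMIs. Its level was 2.21-fold (95% counting interval 2.07 to 2.35) higher in cKO than in Ctrl members. Within each library, members were also divided at their median Glycam1 level, the value that chose them, as a description only. With Glycam1 left out of the totals, 4 of 3568 genes (0.112%) were at least 2-fold higher in the upper part of both libraries and 10 (0.28%) at least 2-fold lower. The higher ones were Ptgds (321 against 106 CPM in cKO and 376 against 122 CPM in Ctrl), Clu, a secreted chaperone (5044 against 2346 CPM in cKO and 6784 against 2442 CPM in Ctrl), Reg3g, an antimicrobial lectin (176 against 77.5 CPM in cKO and 127 against 18.7 CPM in Ctrl), and H2-M2 (42.4 against 20.1 CPM in cKO and 54 against 26.5 CPM in Ctrl). The lower ones were Ccl20, Fabp5, Sparcl1, Aebp1, Pdlim4, Ccl7, Wfdc18, Mctp1, Ly6c1 and Zfp36l2. In Ctrl a single cell held all Ccl7 UMIs and 74.7% of those of Ccl20. Luminal epithelial markers, Wfdc18 being a luminal gene, were also lower in the upper part, with a median log2 ratio over 6 genes of -0.39 in cKO and -2.42 in Ctrl, and their part in these differences was not tested. Ly6c1, a gene of capillaries, had 30.9 against 90 CPM in cKO and 40.5 against 119 CPM in Ctrl, and Sparcl1, a matricellular gene of vessels, 11.2 against 58.6 CPM in cKO and 7.5 against 65.6 CPM in Ctrl. Madcam1, under the UMI limit, had 2.55 against 19.1 CPM in cKO and 1.5 against 23.4 CPM in Ctrl. Only 2 of 48 Ctrl members held a Madcam1 UMI, so each Ctrl value came from a single cell.

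Between genotypes, 303 of 5584 genes (5.43%) were at least 2-fold higher in cKO than in Ctrl HEV-like cells and 40 (0.716%) at least 2-fold lower. The median log2 ratio of all tested genes was 0.17, and TMM scaling moved it to 0.05. With the mean over cells in place of summed UMIs, 342 genes were higher and 95 lower. In other blood endothelial cells of the same libraries, 223 of 4850 (4.6%) stood 2-fold or more above Ctrl and 63 (1.3%) below. Of the 6 markers of HEV-like cells 0 were 2-fold apart, with a median log2 ratio of 0.08 (-0.04 with TMM scaling). Glycam1 was at 151878 CPM in cKO and 196922 CPM in Ctrl, a ratio of 0.771.

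Within the homing programme, 2 of 13 tested genes of L-selectin ligand synthesis were at least 2-fold higher in cKO and none was lower. The sialyltransferase St3gal4 had 179 CPM in cKO and 75.6 CPM in Ctrl, 2.37-fold (95% counting interval 1.97 to 2.87) higher, and B3gnt3 had 138 UMIs in cKO and 11 in Ctrl, 2.21-fold (95% counting interval 1.2 to 4.53) higher. Fut7 (255 CPM in cKO and 183 CPM in Ctrl) and Chst4 (157 CPM in cKO and 159.7 CPM in Ctrl) were within 2-fold. MHC class II genes had a median log2 ratio of -0.45 and 0 of 6 were 2-fold apart; without the members that held a leukocyte marker UMI it was -0.87, with 1 of 5 lower. Of 13 chemokine and lipid attractant genes, Plpp3, a lipid phosphatase, was 2.16-fold (95% counting interval 1.84 to 2.55) higher in cKO. With TMM scaling it was under 2-fold, at log2 0.99. Without 28 cKO members high in interferon genes (described below), 0 of the 13 genes were 2-fold higher. Ccl20, Ccl7 and Cxcl16 were at least 2-fold lower. Of the Ctrl UMIs of Ccl20 and Ccl7, 74.7% and 100% came from 1 cell, and without the cells called as doublets none of these 3 genes was 2-fold lower, Cxcl16 having a log2 ratio of -0.999 against -1.05 with them. None of 18 tested lymphotoxin and NF-kB pathway genes was 2-fold apart, Icam1 included (217 CPM in cKO and 377 CPM in Ctrl).

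Interferon-stimulated genes stood out. In cKO HEV-like cells 18 of the 27 tested list genes passed 2-fold upwards and 0 downwards, and the list's median log2 ratio was 1.48. For other blood endothelial cells the count was 12 of 21, with 0 downwards and a median of 1.21. In luminal cells the list's median was 1.05, against -0.12 for all tested genes, and in basal cells 0.18, against 0.03. Ifit3, an RNA-binding antiviral protein gene, had 1426 UMIs in cKO and 3 in Ctrl members, 83.7-fold (95% counting interval 28.6 to 406) higher. Its relative Ifit1 had 717 UMIs in cKO and 8 in Ctrl members, 15.8-fold (95% counting interval 7.97 to 36.7) higher. Rsad2, which encodes the antiviral enzyme viperin, had 560 and 1 UMIs, 98.6-fold (95% counting interval 17.6 to 3903) higher. Isg15, a ubiquitin-like modifier, had 332 CPM in cKO and 70.6 CPM in Ctrl, 4.71-fold (95% counting interval 3.91 to 5.72) higher.

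The transcription factor genes Irf7 and Irf1 were 2.8-fold (95% counting interval 2.03 to 3.95) and 3.46-fold (95% counting interval 2.63 to 4.63) higher, Usp18, which removes Isg15 from proteins, 12.5-fold (95% counting interval 4.81 to 46.1), and Zbp1, a nucleic acid sensor, 5.43-fold (95% counting interval 2.45 to 15). Ifit2 had 152 UMIs in cKO and 0 in Ctrl, at least 8.92-fold higher, and Ifit3b, a close copy of Ifit3 with which it may share reads, 513 and 0, at least 30.1-fold higher. The abundant members were less far apart: Ifitm3 had 4814 CPM in cKO and 3534 CPM in Ctrl, and Bst2 711 CPM in cKO and 522 CPM in Ctrl. Isg15 was also 4.29-fold higher in cKO other blood endothelial, 2.93-fold higher in luminal and 1.58-fold higher in basal cells. A difference between libraries that reaches several cell types cannot be told apart here from a difference between the animals or preparations of the 2 libraries.

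**Figure D4:**
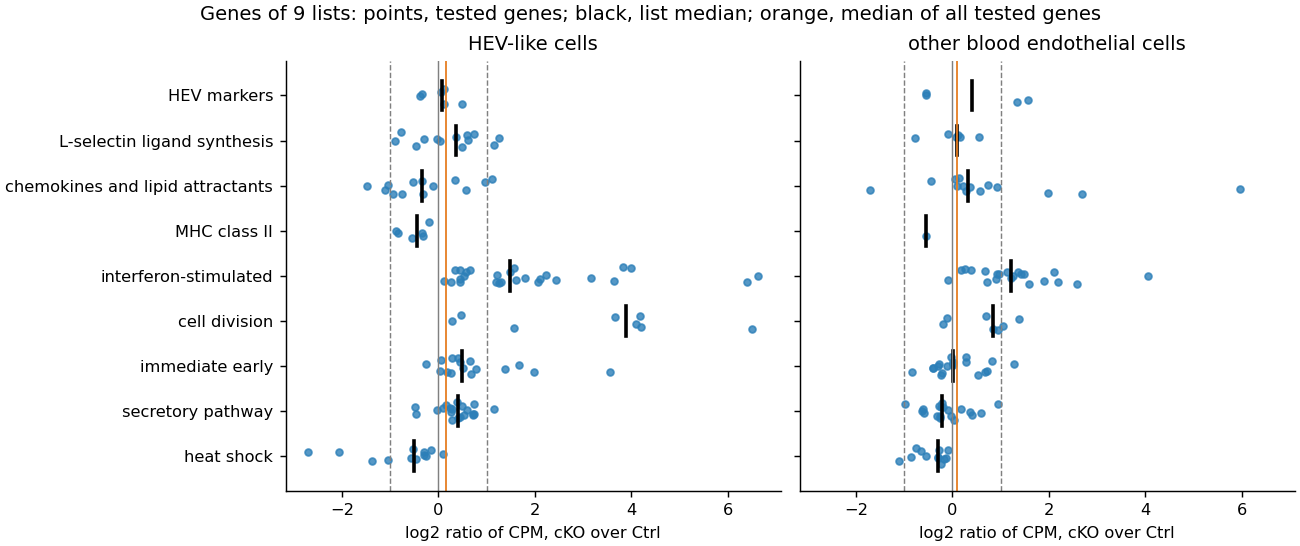
Log2 ratio of CPM, cKO over Ctrl, for the tested genes of 9 lists in HEV-like cells (left) and other blood endothelial cells (right), with sums of 0 set to 3 counts and dashed lines at a 2-fold difference. Of the interferon-stimulated genes 27 of 27 lie right of 0 in HEV-like and 20 of 21 in other blood endothelial cells (list medians 1.48 and 1.21), and division genes reach farther right in HEV-like cells (3.88) than in other blood endothelial cells (0.84).

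The promoters of these genes are known for the interferon-stimulated response element, searched here as GAAA, any 2 bases and GAAA again, on both strands in the 250 bases before each RefSeq start (GRCm38.p6). It was present in 978 of 32851 windows (2.98%), which belong to 936 of 27025 genes. Counted per gene, it was present in 12 of 22 interferon-list genes with a window. These were 6 of the 14 that were at least 2-fold higher in cKO members, 5 of the 7 other tested ones and 1 untested gene. The 4 windows below belong to genes at least 2-fold higher in cKO, with every match in capitals, and Glycam1 is shown as the gene that defines the cells. They lie at chr19:34583279-34583528 on the plus strand, chr19:34640639-34640888 on the plus strand, chr12:26456453-26456702 on the minus strand, chr4:156200819-156201068 on the minus strand and chr15:103565082-103565331 on the minus strand.
Ifit3: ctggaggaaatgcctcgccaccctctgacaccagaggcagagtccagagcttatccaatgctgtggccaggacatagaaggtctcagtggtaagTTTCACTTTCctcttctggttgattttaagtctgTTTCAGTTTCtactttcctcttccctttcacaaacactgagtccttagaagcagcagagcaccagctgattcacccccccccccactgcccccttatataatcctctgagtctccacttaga
Ifit1: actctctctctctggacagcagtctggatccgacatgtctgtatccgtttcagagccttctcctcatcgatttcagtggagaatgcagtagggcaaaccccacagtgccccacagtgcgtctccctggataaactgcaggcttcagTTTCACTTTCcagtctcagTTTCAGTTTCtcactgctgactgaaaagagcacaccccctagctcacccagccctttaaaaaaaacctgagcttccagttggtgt
Rsad2: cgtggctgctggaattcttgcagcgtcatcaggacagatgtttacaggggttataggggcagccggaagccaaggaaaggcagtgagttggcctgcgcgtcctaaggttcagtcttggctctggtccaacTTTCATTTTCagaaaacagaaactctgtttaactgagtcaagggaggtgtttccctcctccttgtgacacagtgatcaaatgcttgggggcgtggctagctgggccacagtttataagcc
Isg15: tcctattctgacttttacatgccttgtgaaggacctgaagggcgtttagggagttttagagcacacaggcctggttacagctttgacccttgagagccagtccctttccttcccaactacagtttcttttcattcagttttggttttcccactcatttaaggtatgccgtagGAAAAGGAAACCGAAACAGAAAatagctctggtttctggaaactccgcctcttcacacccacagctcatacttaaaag
Glycam1: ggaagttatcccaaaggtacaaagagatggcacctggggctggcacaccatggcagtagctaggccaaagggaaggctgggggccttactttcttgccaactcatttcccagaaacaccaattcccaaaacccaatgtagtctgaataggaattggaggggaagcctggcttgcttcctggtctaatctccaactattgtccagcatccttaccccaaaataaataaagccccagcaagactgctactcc
In Ifit3, Ifit1 and Rsad2 the matches are on the strand opposite to the gene and read TTTC, 2 bases, TTTC. The matches begin 156 and 122 bases before the start in Ifit3, 104 and 85 in Ifit1, 120 in Rsad2, and 78, 72 and 66 in Isg15, where they overlap. The Glycam1 window holds no match. A match is a description of the sequence and not a binding site.

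For 6 of the interferon genes, most UMIs sat in few cells. Of 317 cKO members, 28 (8.83%, 5.95 to 12.5%) had at least 10 UMIs of Ifit1, Ifit2, Ifit3, Rsad2, Cmpk2 and Usp18 together, and they held 93.6% of these UMIs. Of 48 Ctrl members 0 did, which allows a share of up to 6.25%, a limit inside the interval of the cKO share. In other blood endothelial cells the shares were 8 of 123 in cKO (6.50%) and 5 of 58 in Ctrl (8.62%), and in lymphatic endothelial cells 17 of 84 (20.2%) and 0 of 8. For Ifit3 alone, 6 cKO cells held at least 50% of its UMIs, and for Rsad2 alone 3 cKO cells did. The counting intervals do not cover this spread between cells. An Ifit3 UMI was found in 18% of cKO and 6.25% of Ctrl members (10.4% and 1.55% after thinning), against 0.518% and 0.285% of basal cells. With the 28 cells left out, which lowers these genes by construction and leaves 19 of them testable, 4 of 19 were at least 2-fold higher and the median log2 ratio was 0.63. The whole list, which holds abundant genes as well, was not higher in few cells only. Summed over it, members had a median of 76.5 UMIs per 10000 in cKO (7.70 to 533) and 54.9 in Ctrl (32.5 to 186). The lower quartiles were 63.2 in cKO and 46.2 in Ctrl.

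Cell division genes also differed. In cKO members 6 of the 8 tested division genes passed 2-fold upwards and 0 downwards (median log2 ratio 3.88), against 2 of 7 and 0.84 in other blood endothelial cells. Ube2c, of the mitotic ubiquitin ligase pathway, had 512 UMIs in cKO and 1 in Ctrl, 90.2-fold (95% counting interval 16.1 to 3569) higher, and Cdk1, the mitotic kinase, 290 and 0, at least 17-fold higher. Top2a had 204 and 2 UMIs and Birc5 208 and 2. The replication genes Mcm3 (23.8 CPM in cKO and 19.7 CPM in Ctrl) and Pcna (33.3 CPM in cKO and 24 CPM in Ctrl) were within 2-fold. Again few cells carried the signal: 22 of 317 cKO members (6.94%, 4.40 to 10.3%) had at least 10 UMIs of 11 mitotic genes and held 96.7% of them, and 0 of 48 Ctrl members did, which allows up to 6.25% (3 counts of 48), a limit inside the interval of the cKO share.

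These 22 cells had a median of 44655 UMIs, against 25816 in the other cKO members. Without them, which removes these UMIs by construction and leaves 3 of the genes testable, 1 of 3 was 2-fold higher and the median log2 ratio was -0.06. In other blood endothelial cells, 4 of 123 in cKO (3.25%) and 3 of 58 in Ctrl (5.17%) reached 10 mitotic UMIs.

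**Figure D5:**
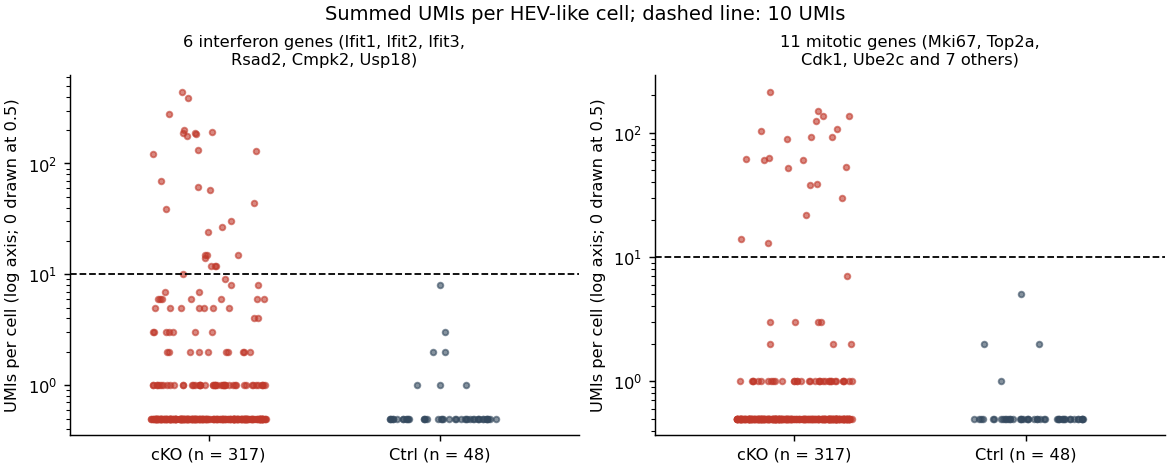
UMIs per HEV-like cell (log axis, 0 drawn at 0.5) of 6 interferon genes (left) and 11 mitotic genes (right), 1 point per cell, for cKO (317 cells) and Ctrl (48 cells). Above the dashed line at 10 lie 28 cKO and 0 Ctrl cells on the left, and 22 cKO and 0 Ctrl cells on the right.

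In cKO members 4 of the 16 tested immediate early genes passed 2-fold upwards and 0 downwards (median log2 ratio 0.48, against 0.01 with 1 of 19 higher in other blood endothelial cells). Egr1 had 79.7 CPM in cKO and 6.76 CPM in Ctrl, 11.8-fold (95% counting interval 6.56 to 23.7) higher, and was found in 141 of 317 cKO and 6 of 48 Ctrl members. Klf2, a shear-stress factor of endothelium, was 3.97-fold (95% counting interval 2.68 to 6.13), Fos 3.18-fold (95% counting interval 2.6 to 3.92) and Ier2 2.6-fold (95% counting interval 2.18 to 3.12) higher. Socs3, a feedback inhibitor of cytokine signalling, had 363 CPM in cKO and 87.2 CPM in Ctrl, 4.16-fold (95% counting interval 3.52 to 4.96) higher, with a ratio of 1.31 in other blood endothelial cells. Dll4, a Notch ligand, had 168 and 5 UMIs, 5.92-fold (95% counting interval 2.49 to 18.5) higher.

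Among the 10 genes with the highest ratios by rule were also Fgf23, Fjx1, Kcne3, Gmnn and Cenpa. Fgf23, a phosphate-regulating hormone known from bone, had 211 UMIs in 57 of 317 cKO members and 0 in Ctrl members, at least 12.4-fold higher, while other blood endothelial cells had 0 UMIs in cKO and 11 in Ctrl. Fjx1 had 288 and 2 UMIs, 25.4-fold (95% counting interval 6.96 to 210.4) higher, and Kcne3, a potassium channel subunit, 175 and 2, 15.4-fold (95% counting interval 4.2 to 128) higher. Gmnn (geminin, an inhibitor of DNA re-replication) had 140 and 2 UMIs, and Cenpa (centromeric histone) 194 and 3. Genes of the secretory pathway had a median log2 ratio of 0.40 (1 of 20 at least 2-fold higher, Creld2 with 108 CPM in cKO and 48.5 CPM in Ctrl), against -0.23 in other blood endothelial cells.

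Heat shock genes were lower in cKO. In cKO members 4 of the 12 heat shock genes passed 2-fold downwards and 0 upwards (median log2 ratio -0.50), against 1 of 12 and -0.31 in other blood endothelial cells. Hspa1a had 72.2 CPM in cKO and 468 CPM in Ctrl, 6.49-fold lower in cKO (ratio 0.154, interval 0.139 to 0.171), with 36.6% of cKO and 77.1% of Ctrl members holding a UMI. Hspa1b, its near-identical neighbour with which reads may be shared, had 22.5 CPM in cKO and 94 CPM in Ctrl, 4.18-fold lower in cKO (ratio 0.239, interval 0.193 to 0.297). Hsph1 and Hsp90aa1 were 2.58-fold and 2.06-fold lower. Hmox1 (heme oxygenase) had 1565 CPM in cKO and 4174 CPM in Ctrl, 2.67-fold lower in cKO (ratio 0.375, interval 0.364 to 0.386).

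Hmox1 was lower in other cKO cells too, with ratios of 0.778 in other blood endothelial and 0.462 in luminal cells. The 10 genes with the lowest ratios also held Plin2, a lipid droplet coat gene (31.9 CPM in cKO and 98.3 CPM in Ctrl), Mbtd1 (11.3 CPM in cKO and 33.8 CPM in Ctrl), Cdkn2b, a cell-cycle inhibitor (11 CPM in cKO and 31.9 CPM in Ctrl), Stra6 (11.4 CPM in cKO and 35.6 CPM in Ctrl), C1ql3 (8.33 CPM in cKO and 54.7 CPM in Ctrl) and Ccl20. In Ctrl, a single cell held 52.8% of the C1ql3 UMIs, and a single cell 46.6% of those of Stra6. Differences between preparations and between genotypes cannot be told apart with 1 library per group.

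Ccnd1, the target named in the study's title, had 677 CPM in cKO and 593 CPM in Ctrl HEV-like cells. This was 1.14-fold (95% counting interval 1.07 to 1.22) higher in cKO. Ccnd1 was also higher in cKO other blood endothelial cells, with the CPM given above, and 1.54-fold higher in cKO luminal cells. Median log2 ratios of all tested genes were 0.17 in HEV-like cells (0.05 with TMM scaling), 0.09 in other blood endothelial and -0.12 in luminal cells. Of 9 tested genes among Ccnd1 and reported targets of the miR-200 family, 0 were 2-fold apart in HEV-like cells, with a median log2 ratio of 0.01 (-0.11 with TMM scaling). Over all tested genes 5.43% were higher and 0.716% lower, so nothing is read from 0 of 9. Zeb1, the best-known target of the family, had 66.2 CPM in cKO and 57.7 CPM in Ctrl, and Flt1, a receptor of VEGF, 174 CPM in cKO and 147 CPM in Ctrl.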

How the data were processed

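RNA of single mammary cells was measured with the 10x Chromium 3′ chemistry, version 2 per the labels' protocols, in 2 libraries, cKO and Ctrl. The deposited values are counts, whole numbers of UMIs per gene and barcode with no normalization; Cell Ranger 2 and mm10 are named in the submitters' processing notes, while the file headers record software version 3.0.0. Filters applied by the authors before deposit are not given in the sources used here, and 0 columns were left unmapped. The files hold 31053 genes and 6257 cKO and 4237 Ctrl barcodes, of which cells with at least 500 genes and at most 10% mitochondrial UMIs were kept. Reads of a gene and of an overlapping or antisense gene may be mixed.

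Members were chosen by the limits given above, counts were summed per library and cell group, and CPM ratios were given with exact conditional binomial intervals, levels with Poisson intervals and shares with Clopper-Pearson intervals, all at 95% and for counting error only. A gene entered a comparison when at least 20 UMIs were expected in each group, and it was called when 2-fold apart, with sums of 0 set to 3 counts; with 1 library per group there was no test. Code was tested on simulated counts. Members and gene lists (33 lists) were chosen with earlier results of these data known. Named were the 6 markers, the homing, adhesion, chemokine and NF-kB genes, the 15 genes highest against other blood endothelial cells, the 10 highest and 10 lowest cKO over Ctrl ratios (with 50 or more UMIs and 10% of cells in the higher library), and up to 4 genes of every other list; genes named beyond this rule (among them Clu, Reg3g, H2-M2, Sparcl1, Irf1, Irf7, Zbp1, Fcer1g, Xbp1 and the genes of the Ccl21a split) were chosen after their values were seen. A gene that this rule names is not reported here. Scrublet in scanpy 1.11.5, run per library with 0.8% expected doublets per 1000 cells, called 64 cKO and 43 Ctrl cells, 6 and 1 of them members; they were kept, and left out as an alternative. TMM factors came from edgeR 4.0.16 in R 4.3.3; numpy 2.4.6, scipy 1.17.1 and pandas 2.3.3 did the rest. Gene positions are from GENCODE M21 and promoters from RefSeq.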

Additional observations from a re-analysis of the deposited data

Results flagged for a closer look

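With 1 library per group, none of these differences was tested. Vwf, the von Willebrand factor of endothelium, had a log2 ratio of cKO over Ctrl of 1.26 in HEV-like cells (54.5 CPM in cKO and 22.7 in Ctrl) and moved the other way in other blood endothelial cells (92.8 CPM in cKO and 189 in Ctrl, a ratio of 0.492). Ccl7, a chemokine for monocytes, had a log2 ratio of -1.10 in HEV-like cells and a ratio of 3.94 in other blood endothelial cells; all 43 of its Ctrl UMIs and 77 of its 114 cKO UMIs in HEV-like cells came from 1 cell in each library.

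Outside the members, 15 kept cKO cells had at least 100 Glycam1 UMIs per 10000 but passed a keratin limit, 12 by Krt18 and 3 by Krt5 and Krt14, and 1 such cell was found in Ctrl. The 15 cells had a median of 30615 UMIs, 721 Glycam1 and 99.6 Krt18 UMIs per 10000, and 8 of them were called as doublets; the Ctrl cell, with 69324 UMIs, was called as well.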

How the results depend on the processing

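No paired analysis was possible because each group has 1 library, and for the same reason no replicate could be left out. Of 40 alternative values of the counts over all genes and of the shares of kept cells, 33 stayed within 1.5 times the main count or the share's interval. Genes higher in cKO HEV-like cells numbered 303, but 123 with at least 50 and 848 with at least 5 UMIs expected. Genes lower in cKO numbered 40, but 61 with TMM scaling, 95 with the mean over cells, 21 with at least 50 and 136 with at least 5 UMIs expected. Genes lower in HEV-like than in other blood endothelial cells numbered 599, but 396 with Glycam1 left out of the totals.

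Leaving out the 22 dividing or the 28 interferon-high cKO cells was chosen after seeing the data. Without the dividing cells the log2 ratios were -0.53 for Birc5, -0.33 for Cdk1, -0.75 for Top2a, -1.33 for Ube2c and -0.065 for the median of the division list. Without the interferon-high cells that of Cmpk2 was -0.37. Without doublet calls, which removed 1 Ctrl member, Ccl20 had 0.50 and Ccl7 2.75, and with a Glycam1 limit of 200 Ccl7 had 2.77. Cldn4 had -0.028 with the mean over cells. Of the other alternative values for single genes and lists, 969 stayed within their limit and 92 moved past it. For genes the limit was the counting interval, and for list medians a fixed log2 distance. The 48 Ctrl members limit every comparison between genotypes.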

Other observations

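Between genotypes, 5.43% of all tested genes were at least 2-fold higher in cKO HEV-like cells and 0.716% lower. The counts for gene groups of vessel identity are small and are given beside these shares as a description. Of 17 pan-endothelial genes 0 were 2-fold apart (median log2 ratio -0.08), of 8 venous genes 1 was higher in cKO (Vwf), of 5 capillary genes 0 were 2-fold apart and of 3 arterial genes 1 was higher in cKO (median log2 ratio 0.83, all 3 above 0, and 2 past 2-fold with the mean over cells). Of 15 tested mucins and adhesion molecules 0 were 2-fold apart, and of 12 high endothelial reference genes 1 was higher in cKO. Of 6 Notch pathway genes Dll4 was the 1 that was higher; in other blood endothelial cells its ratio was 0.552. Of 11 serpins 0 were 2-fold apart (median log2 ratio -0.29). Of 9 complement and acute-phase genes Socs3 was the 1 past 2-fold.

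Of 17 MHC class I and peptide loading genes, 1 was higher in cKO: Tap1, a peptide transporter subunit induced by interferon, with 55.3 CPM in cKO and 25.2 in Ctrl HEV-like cells (2.20-fold, 95% counting interval 1.6 to 3.10). Without the 28 interferon-high cells its log2 ratio was 0.75, under 2-fold. Of 9 luminal genes Areg (364 and 15 UMIs in cKO and Ctrl HEV-like cells, 4.27-fold) and Cldn4 (170 and 11 UMIs, 2.72-fold) were higher in cKO HEV-like cells, but with the mean over cells Cldn4 had a log2 ratio of -0.028. The median log2 ratio of the luminal list was 0.19, and -0.27 without doublet calls. In luminal cells these genes stood at 2610 and 1354 CPM in cKO and 1329 and 707 CPM in Ctrl, and the part of free luminal RNA in their HEV-like levels was not tested. Fcer1g, the signalling chain of Fc receptors, had 420 UMIs in cKO and 9 in Ctrl HEV-like cells (8.22-fold, 4.29 to 18.1), with 24 and 0 UMIs in other blood endothelial cells. Milk genes summed to 6.92 CPM in cKO and 4.91 in Ctrl HEV-like cells, and red blood cell genes to 6 and 0 UMIs.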
